A study of Mus musculus with 21 samples.

Results

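Gene expression under a methionine-restricted (MR) diet was set against a control chow in 3 kinds of material at once, to ask which genes stood on the same side of the diet in every one of them. All 21 libraries of the series entered the comparison, and genes were joined by gene symbol across the 3 tables of counts. Of 12425 genes listed in all 3 tables, 11246 passed the filter on low counts in each and were tested. Of these, 2926 genes had a fold change of the same sign in CD8+ T cells, MC38 tumors and BPD6 tumors, 1546 of them higher and 1380 lower in MR. No gene passed edgeR's test of a diet effect shared by the 3 materials, the main test here. DESeq2 called 43 genes, a fit with equal weight for the materials 90 and limma-voom 1, and some genes passed edgeR's test in CD8+ T cells alone.

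Splenic CD8+ T cells, lymphocytes that kill infected and malignant cells, gave 6 libraries, 3 from mice on control chow and 3 from mice on the MR diet. Tumors of the mouse colon carcinoma line MC38 gave 8, with 4 per diet. Tumors of the mouse melanoma line BPD6 gave 7, with 4 on control chow and 3 on MR. Tumor pieces hold the cells of the host as well as the cancer cells, and in such bulk RNA fewer cells of a type and less RNA per cell cannot be told apart. The tumor samples are labelled as tumor cells and the series design calls them tumors, with no statement of a sort. Strain, genotype, age, length of the diet and whether the T cell donors bore tumors are not stated in the labels used here. Nor is it said that each replicate is its own animal, so the p-values reflect a spread between samples that may in part be technical.

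Methionine is an essential amino acid that starts protein synthesis and, as S-adenosylmethionine, donates the methyl groups of DNA, RNA and histones. Spent S-adenosylmethionine is recycled to methionine or passed to cysteine and glutathione, and its decarboxylated form feeds polyamine synthesis. Cells short of amino acids are known to raise the transcription factor ATF4 and its targets, and diets low in methionine are known to lower circulating insulin-like growth factor in mice.

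Counts per library lay between 15733774 and 19562590 in CD8+ T cells, between 16275832 and 24129562 in MC38 and between 18346438 and 20835926 in BPD6. Levels are in CPM, counts divided by the effective library size and scaled. Summed marker levels and genes not tested in a material use the plain library size. T cell receptor and co-receptor genes marked the sorted cells: 11 of 12 T cell markers were listed, with a summed level of 4496 to 5479 CPM in the CD8+ T cells against 3.799 to 87.6 CPM in the tumors. The melanocyte genes Dct, Tyr, Tyrp1 and Mlana were not listed for BPD6, and Pmel, a melanosome matrix gene, stood at 0.882 to 1.67 CPM there, in the line labelled as melanoma. Of the other melanocyte markers, Mitf, the lineage transcription factor, stood at 15.1 to 25.5 CPM in BPD6 and 5.39 to 10.6 CPM in MC38, and Sox10 at 0.325 to 11.2 CPM in BPD6 and 0 to 32.2 CPM in MC38. The melanocyte markers listed, 2 in CD8+ T cells and 3 in BPD6, summed to 181 to 288 CPM and 16.8 to 27.9 CPM. Epithelial markers summed to 4.29 to 81.3 CPM in MC38, 2.35 to 26.2 CPM in BPD6 and 4.01 to 6.16 CPM in CD8+ T cells, with overlapping ranges. MC38 MR replicate 1 and BPD6 control replicate 1 stood apart from the other libraries of their groups in the level of long against short transcripts, and results are given without them where they moved.

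The direction of the diet difference was nearly even between higher and lower in each material. In CD8+ T cells 49.9% of the 11246 genes were higher in MR, in MC38 55.1% and in BPD6 47.0%. If the 3 materials were unrelated, the product of these shares would put 24.8% of genes, or 2794, on one side in all 3. The observed share was 26.0%. For genes higher in all 3 the observed share was 13.7% against a product of 12.9%, and for genes lower in all 3 it was 12.3% against 11.9%. The number of genes of one direction was therefore close to what unrelated directions give. Genes are not independent of each other, so no p-value was computed for this difference. Leaving out 1 library at a time kept the observed share above the product in 18 of 21 cases. Without BPD6 control replicate 1 it was 29.1% against 25.1%, and without BPD6 MR replicate 1 it was 22.9% against 24.8%, so a single BPD6 library moved the excess in either direction by more than its own size. The share was also below the product without CD8+ T cell MR replicate 2, at 24.1% against 24.8%, and without BPD6 control replicate 2, at 24.2% against 24.9%. Without MC38 MR replicate 1 it was 27.7% against 25.0%.

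Other combinations of direction departed further from the product than the shared one. Genes lower in CD8+ T cells and higher in both tumors numbered 1733, where the product gives 1459. Genes higher in CD8+ T cells and lower in both tumors numbered 1659, where the product gives 1335. The combinations that split the tumors were below the product: genes higher in CD8+ T cells and MC38 but lower in BPD6 numbered 1288 against 1641, and the reverse combination 883 against 1187. Pair by pair, the sign was shared by 56.2% of genes between the tumor models (product 49.7%), by 50.5% between CD8+ T cells and BPD6 (product 50.004%) and by 45.3% between CD8+ T cells and MC38 (product 49.99%). Across the 11246 genes, which are not independent replicates, Spearman's rho of the log2 fold changes was 0.18 between the tumors (Pearson's r 0.15), -0.0058 between CD8+ T cells and BPD6 (r -0.035) and -0.15 between CD8+ T cells and MC38 (r -0.14). The shared direction thus sat between tumors that leaned together and T cells that leaned away from MC38.

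**Figure D1:**
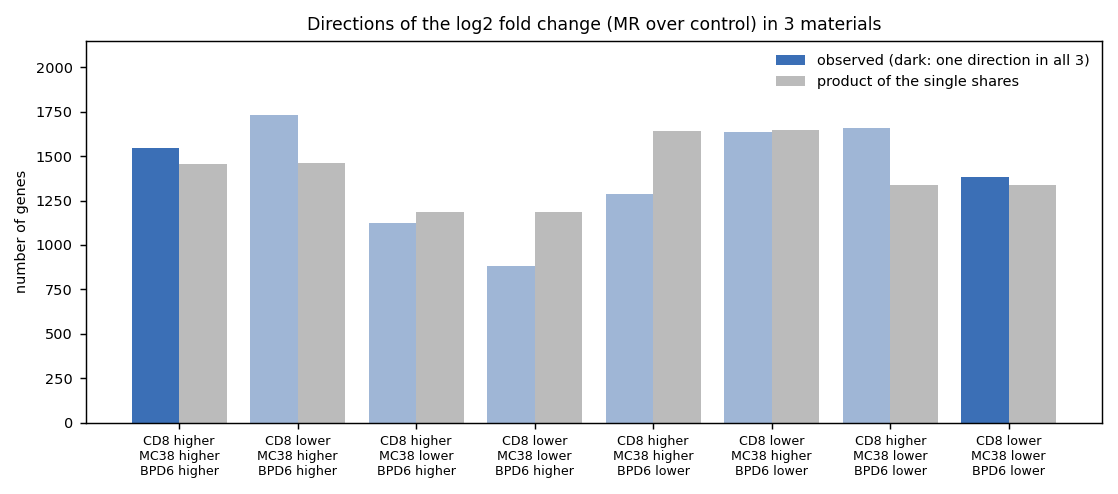
Number of genes (y axis) for each of the 8 combinations of direction in CD8, MC38 and BPD6 (x axis), observed (blue, dark where the direction is the same in all 3) and as the product of the single shares (grey). The all-higher combination stands at 1546 observed against 1455 and the all-lower combination at 1380 against 1339, while both combinations with CD8 against the tumors exceed the product by more.

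Many of the shared signs rested on a difference near 0. In 1216 of the 2926 genes, 41.6%, at least 1 of the materials differed by under 0.05 on the log2 scale, and the median of the smallest of the 3 differences was 0.062. Conversely, 1428 genes of mixed direction missed a shared one only by a material under 0.05. When a difference of at least 0.2 was asked for in every material, 212 genes remained, 152 higher and 60 lower, against a product of 148. At 0.3 there were 62 higher and 8 lower, and at 0.5 there were 11 higher and 0 lower. Larger shared differences were thus mostly upward, a description of sizes that uses no test.

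The shared diet effect was tested with material as a block by edgeR's quasi-likelihood test, and 0 of 11246 genes (0%) had a Benjamini-Hochberg adjusted p under 0.05. The lowest adjusted p was 0.126. At an unadjusted p under 0.05 there were 1193 genes (10.6%), 531 higher (4.72%) and 662 lower (5.89%), and 1008 of them had one direction in all 3 materials, 457 higher and 551 lower. Other tools drew the line elsewhere on the same counts. DESeq2 called 43 genes of 10147 with an adjusted p (0.424%), 14 higher and 29 lower, every one with the same sign in all 3 materials. The fit that gives the 3 materials equal weight called 90 (0.800%), 73 of them of one direction, and limma-voom called 1 (0.00889%), the pseudogene Slc2a4rg-ps, lower in MR. DESeq2 and the equally weighted fit shared 27 genes of one direction, 9 higher and 18 lower.

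A change in every material is a stricter demand than a change on average. The share of the 11246 genes at an unadjusted p under 0.05 was 17.1% in CD8+ T cells, 15.3% in MC38 and 1.89% in BPD6. Only Rabac1, higher, and Baz1a, lower, reached it in all 3 with one direction (0.0178%), where the product of the shares gives 1.40 genes. Of the remaining genes of one direction, 2032 reached it in no material. At least 2 materials reached it in 97 genes, 52 higher and 45 lower. When the largest of the 3 p-values was adjusted over all genes tested, the lowest value was 1 and 0 genes passed. The pair at an unadjusted p under 0.05 also depended on single libraries: without BPD6 MR replicate 1 no gene was left, without CD8+ T cell MR replicate 3 there were 5, without BPD6 control replicate 1 or BPD6 MR replicate 2 or 4 there were 4, and without CD8+ T cell control replicate 1 or 3, CD8+ T cell MR replicate 1, MC38 control replicate 3 or BPD6 control replicate 2 there was 1.

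Genes were named as the 5 of lowest p in each direction among those of one direction. Predicted genes, Rik clones and antigen receptor segments were left out, and no minimum level was set beyond the filter on low counts. Those described here had a mean of at least 5 CPM in every material. The higher ones were Cyhr1, Rabac1, Cirbp, Cyp4f13 and Ccdc167, with adjusted p between 0.126 and 0.186. The lower ones described here were Nsd2, Naa16, Baz1a and Chd3, each with an adjusted p of 0.126. These 9 genes were all among the 27 genes that DESeq2 and the equally weighted fit both called. Those fits tested a shared diet effect on the same counts, and the 27 were also limited to one direction. The overlap is therefore not separate support for the 9 genes. Below, a level is in CPM, libraries are given in order of replicate number, and differences are log2 of MR over control with their standard error (SE).

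Cirbp (chr10:80165990-80172786, GRCm38.p6), the cold-inducible RNA-binding protein that is known to rise when body or culture temperature falls slightly, had the largest shared difference of the genes in this group. In CD8+ T cells the control libraries stood at 74.6, 79.5 and 105 CPM and the MR libraries at 243, 288 and 179.8 CPM. In MC38 they stood at 27.4, 22.4, 16.5 and 27.2 CPM in control and 31.0, 29.3, 30.3 and 36.4 CPM in MR. The groups did not overlap in either material. In BPD6 the control libraries stood at 14.1, 14.7, 19.7 and 27.2 CPM and the MR libraries at 31.3, 20.6 and 24.1 CPM, so that control replicate 4 lay above MR replicates 2 and 4 and the groups overlapped. The shared difference was 0.72 ± 0.16 (SE; n = 21 libraries, edgeR adjusted p = 0.172). By material it was 1.45 ± 0.19 in CD8+ T cells, where Cirbp rose past the test of that material alone (edgeR adjusted p = 0.00224), 0.44 ± 0.17 in MC38 and 0.42 ± 0.25 in BPD6. Among the genes tested jointly 61 rose in CD8+ T cells alone (0.542%). Over its own table that material had 174 calls in 12348 genes (1.41%), while MC38 and BPD6 alone had 0 edgeR calls (0%), with 1981 (14.1%) and 258 (1.85%) genes at an unadjusted p under 0.05.

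Rabac1 (chr7:24969750-24972728), a small membrane protein that binds prenylated Rab GTPases of the secretory pathway, was the higher gene with the most even difference. Its CD8+ T cell control libraries stood at 122, 135 and 119 CPM and the MR libraries at 216, 173 and 122 CPM, with MR replicate 3 inside the control range. In MC38 the levels were 146, 133, 131 and 141 CPM in control and 195, 178, 189 and 165 CPM in MR, with every MR library above every control. In BPD6 they were 115, 108, 110.4 and 119 CPM in control and 149.6, 119 and 133 CPM in MR, where MR replicate 2 lay just above control replicate 4. The differences were 0.45 ± 0.18, 0.40 ± 0.083 and 0.24 ± 0.098, and the shared one 0.35 ± 0.076 (edgeR adjusted p = 0.172).

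The reference promoter windows of these genes, the 250 bases before an annotated transcript start, are shown for Rabac1 and Cirbp because they are the higher genes with the most even and the largest shared difference. The letters are from RefSeq, build GRCm38.p6, 5′ to 3′ on the strand of the gene, with no capitals where none of the motifs searched was found. The Rabac1 window lies at chr7:24972729-24972978 on the minus strand and holds 51.2% G and C, and the Cirbp window shown, at chr10:80167589-80167838 on the plus strand, holds 65.6%. RefSeq gives another Cirbp window at chr10:80167921-80168170, with 72.4% G and C and none of the motifs. Both Cirbp windows lie within the span of the gene given above.
Rabac1: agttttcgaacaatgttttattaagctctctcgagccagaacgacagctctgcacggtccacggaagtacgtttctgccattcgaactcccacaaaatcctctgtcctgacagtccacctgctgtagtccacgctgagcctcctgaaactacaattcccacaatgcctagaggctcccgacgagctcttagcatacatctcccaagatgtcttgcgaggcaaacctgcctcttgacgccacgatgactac
Cirbp: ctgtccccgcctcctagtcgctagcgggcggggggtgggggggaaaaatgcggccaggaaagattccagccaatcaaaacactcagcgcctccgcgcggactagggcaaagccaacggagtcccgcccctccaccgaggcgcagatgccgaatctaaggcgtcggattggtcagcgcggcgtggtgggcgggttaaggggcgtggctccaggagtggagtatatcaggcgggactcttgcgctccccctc

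Cyhr1 (chr15:76643395-76660208), which encodes a cysteine- and histidine-rich protein, had 15.01, 15.9 and 18.8 CPM in control and 26.6, 36.4 and 24.9 CPM in MR CD8+ T cells, without overlap. Its mean level in MC38 was 30.1 ± 2.96 (SD, n = 4) in control and 37.9 ± 4.09 (SD, n = 4) in MR, again without overlap, and in BPD6 4.46 ± 0.493 (SD, n = 4) and 6.06 ± 1.37 CPM (SD, n = 3), where MR replicate 4 lay inside the control range at 4.72 CPM. The shared difference was 0.50 ± 0.10 (edgeR adjusted p = 0.126), and in CD8+ T cells alone Cyhr1 rose by 0.82 ± 0.19 (edgeR adjusted p = 0.0482). Cyp4f13 (chr17:32924688-32947415), a cytochrome P450, and Ccdc167 (chr17:29695977-29717041), a coiled-coil protein, had shared differences of 0.47 ± 0.11 and 0.41 ± 0.095 (edgeR adjusted p = 0.176 and 0.186). Cyp4f13 stood at 102 ± 11.9 (SD, n = 3) and 168 ± 34.5 CPM (SD, n = 3) in control and MR CD8+ T cells and between 3.85 and 14.3 CPM in the tumor libraries. Ccdc167 was lowest in difference in BPD6, at 17.6 ± 1.92 (SD, n = 4) against 19.8 ± 0.813 CPM (SD, n = 3), where the groups overlapped.

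Baz1a (chr12:54892989-55014371), the accessory subunit of ISWI-type chromatin remodelers that space nucleosomes, was lower in every MR library than in every control library of its material. In CD8+ T cells the control libraries stood at 89.6, 91.2 and 96.5 CPM and the MR libraries at 63.2, 75.1 and 73.0 CPM. In MC38 they stood at 123, 123, 131 and 128 CPM and 104, 96.8, 112 and 117 CPM. In BPD6 they stood at 64.6, 77.8, 61.2 and 80.7 CPM and 48.9, 58.8 and 60.5 CPM. The separation in BPD6 was narrow, with control replicate 3 just above MR replicate 4. The differences were -0.39 ± 0.14, -0.24 ± 0.083 and -0.34 ± 0.14 in CD8+ T cells, MC38 and BPD6, and the shared one -0.33 ± 0.064 (edgeR adjusted p = 0.126). Eif4g1 (chr16:20672720-20692883), the scaffold of the cap-binding translation initiation complex, was the other gene without overlap in any material. Its mean was 350.0 ± 18.9 and 317 ± 11.7 CPM in CD8+ T cells (SD, n = 3 each), 781 ± 26.6 and 684 ± 9.15 CPM in MC38 (SD, n = 4 each), and 730.3 ± 15.7 (SD, n = 4) and 642 ± 32.8 CPM (SD, n = 3) in BPD6. The shared difference was small, -0.19 ± 0.047 (edgeR adjusted p = 0.218), and Eif4g1 was singled out after its values were seen. Separation in all 3 materials was found in these 2 genes (0.0178%), where the product of the shares in each material, 22.3% in CD8+ T cells, 9.83% in MC38 and 3.74% in BPD6, gives 2.32 genes.

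**Figure D2:**
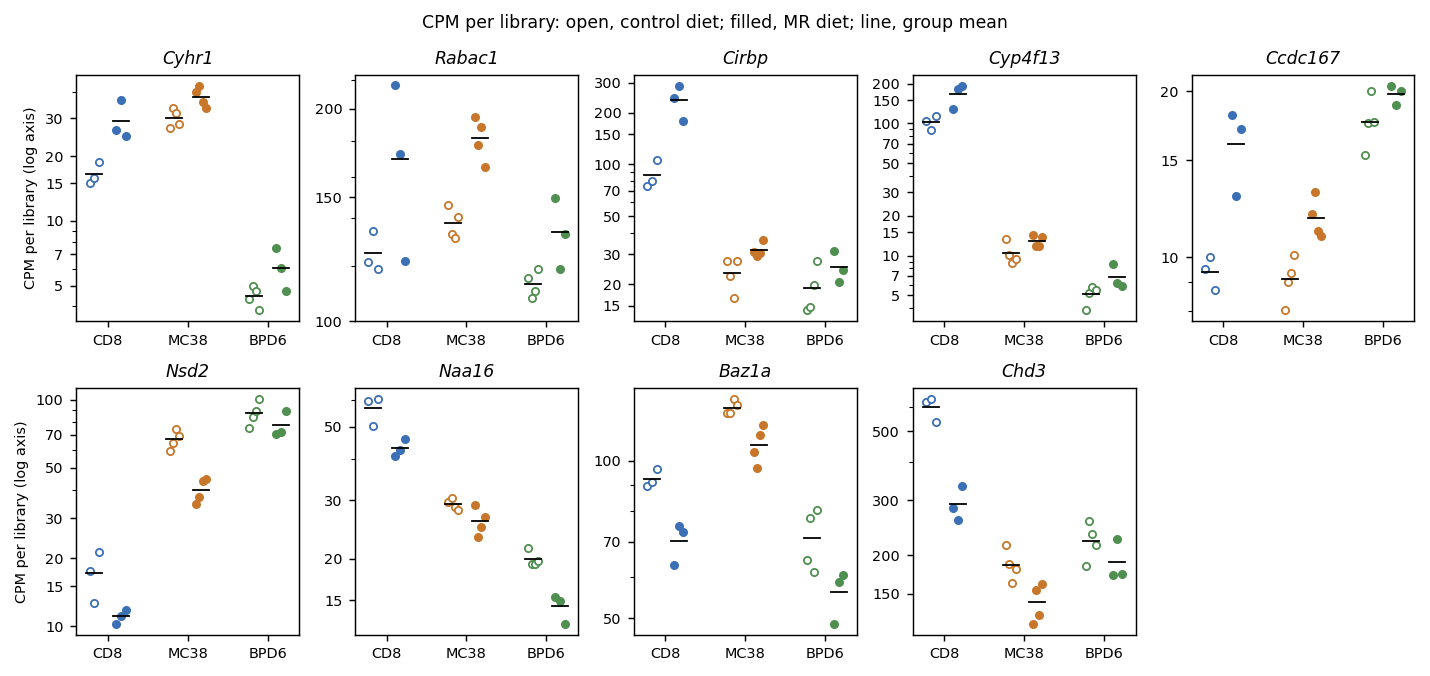
CPM per library on a log axis for named genes, by material, with control libraries open, MR libraries filled and a line at each group mean. The MR libraries of Baz1a lie below all controls of the same material, and those of Cirbp lie above all controls in CD8 and MC38 but overlap them in BPD6.

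Nsd2 (chr5:33820676-33897966), a histone methyltransferase, had the largest difference of the lower genes described in MC38. There the control libraries stood at 59.6, 64.4, 74.4 and 69.3 CPM and the MR libraries at 34.5, 37.0, 43.6 and 44.4 CPM. The CD8+ T cell levels were 17.5, 12.7 and 21.2 CPM in control and 10.3, 11.1 and 11.8 CPM in MR, also without overlap. In BPD6 they were 75.2, 83.5, 89.5 and 101 CPM in control and 70.3, 71.9 and 89.5 CPM in MR, where the groups overlapped. The differences were -0.63 ± 0.23, -0.75 ± 0.11 and -0.17 ± 0.13 in CD8+ T cells, MC38 and BPD6, and the shared one -0.53 ± 0.10 (edgeR adjusted p = 0.126). Nsd2 was the only gene that edgeR called in any of the 21 fits that left out 1 library, at an adjusted p of 0.0497 without BPD6 MR replicate 4, and its adjusted p over those fits ran up to 0.360.

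Chd3 (chr11:69343273-69369499), the helicase of the NuRD remodeling and deacetylase complex, stood at 621, 636 and 538 CPM in control and 284, 260.0 and 333 CPM in MR CD8+ T cells. In that material alone it fell by 1.03 ± 0.16 (edgeR adjusted p = 0.00971). It was 187 ± 21.6 and 141 ± 20.1 CPM in MC38 (SD, n = 4 each) and 223 ± 31.1 (SD, n = 4) and 190.4 ± 30.3 CPM (SD, n = 3) in BPD6, so that the tumors showed a smaller difference of the same sign, -0.40 ± 0.12 and -0.23 ± 0.15. Naa16 (chr14:79334507-79390788), an auxiliary subunit of the N-terminal acetyltransferase, had differences of -0.40 ± 0.15, -0.17 ± 0.10 and -0.47 ± 0.12 in CD8+ T cells, MC38 and BPD6. The shared differences of Chd3 and Naa16 were -0.53 ± 0.11 and -0.34 ± 0.068, each with an edgeR adjusted p of 0.126. Of the lower genes described, Baz1a, Nsd2 and Chd3 are known to act on chromatin.

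Among the other genes that both DESeq2 and the equally weighted fit called, chosen here after their values were seen, Trex1, an exonuclease for cytosolic DNA, was higher by 0.64, 0.40 and 0.36 in CD8+ T cells, MC38 and BPD6. Eomes, a transcription factor of effector and memory T cells and NK cells, differed by -0.73, -0.27 and -0.51. Baz1b, a relative of Baz1a in ISWI remodelers, differed by -0.51, -0.22 and -0.14. Ubtf, which drives transcription of ribosomal DNA, differed by -0.22, -0.41 and -0.12, and Heatr1, needed for ribosome biogenesis, by -0.25, -0.30 and -0.32. Pds5a, a cohesin regulator, and Sfpq, an RNA-binding splicing factor, were lower as well. None of these passed edgeR's shared test, where their adjusted p lay between 0.172 and 0.195. In the authors' deposited table of comparisons, 2906 of the 11246 genes had one direction in all 3 materials. In the authors' deposited table the adjusted p was under 0.05 for 527 of these genes in CD8+ T cells, 315 in MC38 and 0 in BPD6, so its MC38 count differs widely from the 0 found by edgeR here. Nsd2 had an adjusted p of 4.8e-06 and Rabac1 of 0.000907 in MC38 in the authors' deposited table. The authors' deposited table gives 0 genes that had an adjusted p under 0.05 in all 3 with one direction, and Baz1b and Tubb3, a beta tubulin, had one in 2 of the 3.

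**Figure D3:**
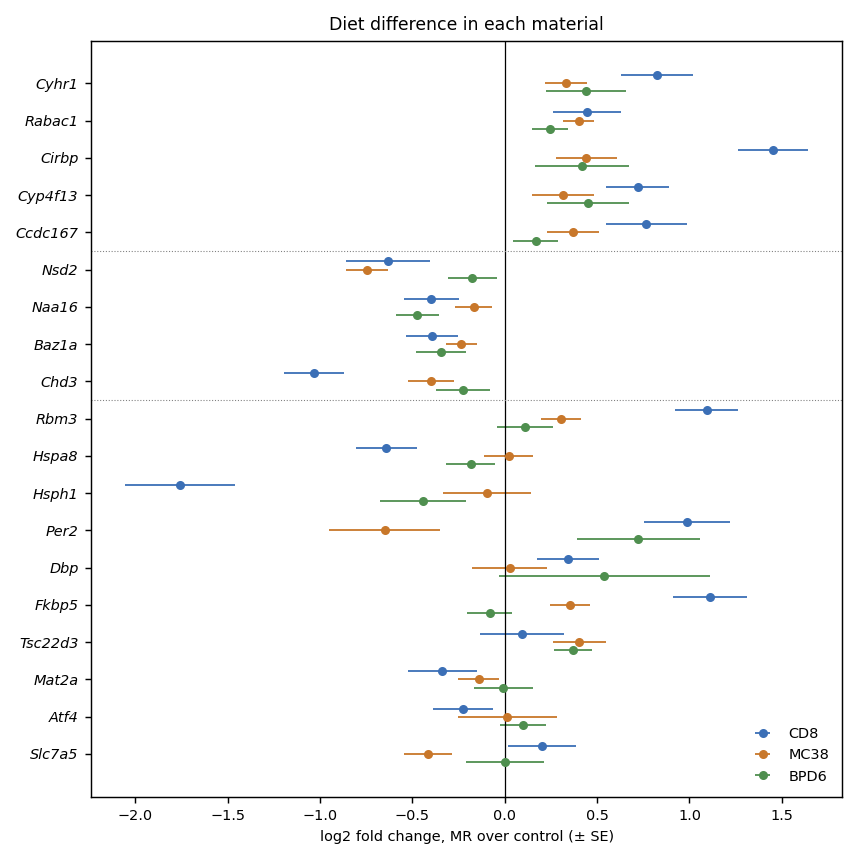
Log2 fold change of MR over control with its standard error (x axis) in CD8, MC38 and BPD6 for named genes (y axis). The CD8 difference is the largest of the 3 for Cirbp (1.45), Chd3 (-1.03) and Rbm3 (1.09). For Rbm3 (0.11) and Nsd2 (-0.17) the BPD6 difference is the one of the 3 materials closest to 0.

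The cold-inducible RNA-binding proteins and the heat shock chaperones, which are known to answer temperature in opposite directions, were examined as lists. Of 5 tested cold-inducible genes 2, Cirbp and Rbm3, were higher in all 3 materials and 0 were lower. Rbm3, a companion of Cirbp that also rises in mild cold, stood at 166, 161 and 129 CPM in control and 367, 345 and 261 CPM in MR CD8+ T cells, where it rose by 1.09 ± 0.17 (edgeR adjusted p = 0.00971). Its levels were 297 ± 24.3 and 367 ± 41.8 CPM in MC38 (SD, n = 4 each) and 254 ± 32.9 (SD, n = 4) and 274 ± 51.7 CPM (SD, n = 3) in BPD6, with overlap in both tumors. The shared difference was 0.45 ± 0.12 (edgeR adjusted p = 0.251), and the diet effect on Rbm3 differed between materials (edgeR interaction adjusted p = 0.0357).

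Of 35 tested heat shock chaperones 10 (28.6%) were lower in all 3 materials and 0 were higher, beside 12.3% lower and 13.7% higher over all genes tested. The 10 were Bag2, Hsp90aa1, Hsp90ab1, Hspa4, Hspa4l, Hspd1, Hsph1, Ptges3, St13 and Stip1. The list was lower in 32 of 35 members in CD8+ T cells and 29 in BPD6 but in 13 in MC38, where its median difference was 0.038 against -0.56 in CD8+ T cells and -0.10 in BPD6. Tested in CD8+ T cells alone, 11 members fell, beside 92 falling among all 11246 genes (0.818%). Hsph1, a large chaperone that exchanges the nucleotide of Hsc70, stood at 400.2, 182 and 185 CPM in control and 60.3, 56.2 and 111 CPM in MR CD8+ T cells, a fall of 1.76 ± 0.30 (edgeR adjusted p = 0.0125). In MC38 it stood at 314, 517, 578 and 325 CPM and 511, 442, 381 and 286 CPM, and in BPD6 at 233, 229.6, 139 and 206 CPM and 105, 157 and 184 CPM, with the groups overlapping in both tumors. Hspa8, the constitutive Hsc70, missed one direction because MC38 differed by 0.021 ± 0.13. The count of 10 depended on single MC38 libraries and on 1 BPD6 library: it was 22 without MC38 MR replicate 1, 16 without MC38 control replicate 4, 6 without MC38 control replicate 2 or MC38 MR replicate 2, 3 without MC38 control replicate 3 or MC38 MR replicate 4, and 4 without BPD6 control replicate 1.

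The windows of Hsph1 and Hspd1, the mitochondrial chaperonin, are shown because these chaperone genes were lower in all 3 materials. RefSeq gives 2 windows for each gene, at different starts, and the one shown holds a motif, given in capitals. In Hsph1 (chr5:149636316-149636565, minus strand, 60.8% G and C) it is an E-box, CACGTG, beginning at position -19 from the start. In Hspd1 (chr1:55087933-55088182, minus strand, 69.6% G and C) it is a pair of heat shock units, GAANNTTC, at position -139. The other Hsph1 window, which overlaps the one shown, holds none of the motifs searched, and the other Hspd1 window holds an E-box. Both Hsph1 windows hold heat shock units in the opposite order, which was not searched and is not in capitals.
Hsph1: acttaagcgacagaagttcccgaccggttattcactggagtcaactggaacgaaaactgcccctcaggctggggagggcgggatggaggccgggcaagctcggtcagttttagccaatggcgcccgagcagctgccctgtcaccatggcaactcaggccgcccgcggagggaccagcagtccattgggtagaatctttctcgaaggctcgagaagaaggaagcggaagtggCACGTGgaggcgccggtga
Hspd1: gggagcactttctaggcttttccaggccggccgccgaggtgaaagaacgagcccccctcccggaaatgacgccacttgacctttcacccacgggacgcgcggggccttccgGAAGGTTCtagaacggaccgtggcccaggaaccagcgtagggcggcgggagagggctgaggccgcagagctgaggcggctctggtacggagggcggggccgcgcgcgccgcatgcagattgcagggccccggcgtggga
The motifs were searched on both strands of 11474 windows that matched 9028 of the 11246 tested genes. Heat shock units were searched only as GAANNTTC, which reads the same on both strands. Units in the opposite order, as in Hsph1, are therefore left out of the shares of heat shock units below. GAANNTTC was in 4.92% of all windows, 5.06% of those of the higher genes and 3.99% of those of the lower genes. The E-box CACGTG was in 8.59%, 9.25% and 8.04%, the cAMP element TGACGTCA in 2.64%, 2.34% and 3.19%, the amino acid response element TGATGNAAT in 0.366%, 0.679% and 0.435%, and the interferon element GAAANNGAA in 6.36%, 6.91% and 5.07%. The widest ratio to all windows, that of the amino acid response element among higher genes, rested on 11 windows. Among tested heat shock chaperones GAANNTTC was in 8 of 37 windows (21.6%), and among those lower in all 3 in 1 of 9 (11.1%), that of Hspd1. These matches describe letters in a window and do not show that a factor binds there.

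Targets of the glucocorticoid receptor, the nuclear receptor of adrenal stress hormone, had more members on the higher side than all genes tested. Of 17 tested, 7 (41.2%) were higher in all 3 materials and 0 lower: Ddit4, Hsd11b1, Il7r, Pik3ip1, Sgk1, Tsc22d3 and Txnip. Over all genes tested the shares were 13.7% and 12.3%. The count stayed between 5 and 8 when 1 library was left out. The list was lower in 7 of 17 members in CD8+ T cells and in 3 each in MC38 and BPD6. Its median difference was 0.081 in CD8+ T cells, 0.29 in MC38 and 0.28 in BPD6. Sgk1 differed by only 0.024 ± 0.16 in CD8+ T cells, so its shared sign rested on a value near 0. Hsd11b1, the enzyme that regenerates active glucocorticoid inside cells, stood at 2.30, 2.87, 1.82 and 2.14 CPM in control and 2.002, 5.96, 7.77 and 3.997 CPM in MR MC38 tumors, and at 3.58, 2.80, 3.39 and 1.76 CPM and 6.58, 5.27 and 5.21 CPM in BPD6. The BPD6 groups did not overlap, and in MC38 MR replicate 1 lay inside the control range. Hsd11b1 in CD8+ T cells was 45.4 ± 7.18 and 53.8 ± 12.4 CPM (SD, n = 3 each), and the shared difference was 0.77 ± 0.19 (edgeR adjusted p = 0.218). Tsc22d3, also called GILZ, a mediator of glucocorticoid action, stood at 81.2 ± 15.4 and 107 ± 12.6 CPM in MC38 (SD, n = 4 each) and 52.4 ± 0.882 (SD, n = 4) and 67.7 ± 8.90 CPM (SD, n = 3) in BPD6, with a difference of only 0.092 ± 0.23 in CD8+ T cells. Fkbp5, the co-chaperone that damps the receptor, was of mixed direction. It stood at 80.6, 72.0 and 51.3 CPM in control and 167, 167 and 107 CPM in MR CD8+ T cells, a rise of 1.11 ± 0.20 (edgeR adjusted p = 0.0172). It differed by 0.35 ± 0.11 in MC38 and by -0.080 ± 0.12 in BPD6, and the materials differed from each other in the interaction test (edgeR adjusted p = 0.0317).

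Of 17 tested clock genes 3 were higher in all 3 materials (17.6%), Dbp, Nr1d1 and Rora, and 0 lower. The share higher was near the 13.7% over all genes tested. The list's median difference was 0.18 in CD8+ T cells, -0.20 in MC38 and 0.21 in BPD6. Per2, a repressor of the clock, rose by 0.99 ± 0.23 in CD8+ T cells (edgeR adjusted p = 0.0476) and differed by -0.65 ± 0.30 in MC38 and 0.72 ± 0.33 in BPD6. Dbp, a clock output factor, stood at 43.5 ± 7.53 and 55.2 ± 7.59 CPM in CD8+ T cells (SD, n = 3 each) and differed by 0.027 ± 0.20 in MC38, so its shared sign rested on a value near 0. The count of 3 was 1 without BPD6 MR replicate 1. The time of day of collection is not given in the labels used here, and its part in these values was not tested.

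Genes of the methionine cycle and salvage, the pathway the diet bears on most directly, did not stand out. Of 22 tested, 3 (13.6%) were higher in all 3 materials, Mat2b, Mri1 and Oaz2, and 4 (18.2%) lower, Azin1, Mat2a, Mtr and Odc1. Over all genes tested the shares were 13.7% and 12.3%. Mat2a, the S-adenosylmethionine synthase of most tissues, stood at 157, 123 and 115 CPM in control and 125, 113 and 75.0 CPM in MR CD8+ T cells. It was 245 ± 14.3 and 223 ± 30.03 CPM in MC38 (SD, n = 4 each) and 162 ± 25.5 (SD, n = 4) and 161 ± 28.8 CPM (SD, n = 3) in BPD6. Its groups overlapped in every material, and the shared difference was -0.16 ± 0.099 (edgeR adjusted p = 0.567). Mri1, an enzyme of methionine salvage, was higher by 0.26 ± 0.14, 0.20 ± 0.11 and 0.20 ± 0.12 in CD8+ T cells, MC38 and BPD6, the most even of the list, with a shared difference of 0.21 ± 0.066 (edgeR adjusted p = 0.283). Oaz2, an antizyme that restrains polyamine synthesis, had 0.36 ± 0.16, 0.35 ± 0.11 and 0.0032 ± 0.092, so its sign in BPD6 rested on a value near 0. The count of 4 lower members was 2 without CD8+ T cell control replicate 3 or BPD6 MR replicate 2, and 1 without BPD6 MR replicate 1.

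Transsulfuration and glutathione genes had 5 of 19 members higher in all 3 (26.3%), Csad, Gstm1, Gstp1, Hmox1 and Txnrd2, and 2 lower (10.5%), Gsr and Srxn1. The shares over all genes tested were 13.7% higher and 12.3% lower. Gstp1, a glutathione transferase, differed by 0.66 ± 0.20 in CD8+ T cells but by 0.023 ± 0.096 and 0.036 ± 0.14 in the tumors. The count of 5 was 2 without MC38 control replicate 4, and 3 without MC38 MR replicate 1, 3 or 4 or BPD6 control replicate 2. Targets of ATF4, the transcription factor of amino acid shortage, had 1 of 18 higher, Ddit4, and 2 lower, Sesn2 and Shmt2, so that 3 of 18 (16.7%) had one direction beside 26.0% over all genes. Atf4 itself was of mixed direction, with -0.23 ± 0.16, 0.014 ± 0.27 and 0.098 ± 0.13 in CD8+ T cells, MC38 and BPD6. Asns, asparagine synthetase and a standard ATF4 target, was not tested jointly because its level in CD8+ T cells did not exceed 0.613 CPM. It stood at 277 ± 44.9 and 265 ± 72.5 CPM in MC38 (SD, n = 4 each) and 194 ± 35.2 (SD, n = 4) and 195 ± 58.2 CPM (SD, n = 3) in BPD6. Slc7a5, the large neutral amino acid transporter that carries methionine, was of mixed direction, with 0.20 ± 0.18, -0.42 ± 0.13 and 0.0018 ± 0.21.

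Histone and DNA methyltransferases, enzymes that spend S-adenosylmethionine, had 13 of 29 members lower in all 3 materials (44.8%) and 1 higher (3.45%). Over all genes tested 12.3% were lower and 13.7% higher. The higher one was Smyd2, and the lower ones were Dnmt1, Dnmt3a, Ezh2, Kmt2a, Kmt2b, Kmt2e, Kmt5a, Kmt5b, Nsd2, Prmt5, Setd1b, Setdb1 and Suv39h1. The count stayed between 11 and 17 when 1 library was left out. The list was lower in 26 of 29 members in MC38 and 23 in BPD6 and in 14 in CD8+ T cells, where the median difference was 0.0026. Dnmt1, the maintenance DNA methyltransferase, stood at 151 ± 7.99 and 136 ± 15.5 CPM in CD8+ T cells (SD, n = 3 each), 282 ± 21.5 and 248 ± 29.6 CPM in MC38 (SD, n = 4 each), and 173 ± 13.4 (SD, n = 4) and 152 ± 12.6 CPM (SD, n = 3) in BPD6. Its differences were even at -0.15 ± 0.15, -0.18 ± 0.11 and -0.19 ± 0.098, and the shared one was -0.18 ± 0.062 (edgeR adjusted p = 0.301). These are long genes, with a median transcript of 5367 nt against 2818.5 nt over all genes tested, and after a trend on length was subtracted from the fold changes 10 were lower in all 3.

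Cell cycle and mitosis genes had 12 of 30 members lower in all 3 (40%) and 0 higher: Bub1, Cenpe, Cenpf, Kif11, Kif20a, Mcm2, Mcm3, Mcm5, Mki67, Rrm2, Spag5 and Top2a. The shares over all genes tested were 12.3% lower and 13.7% higher. In CD8+ T cells 26 of 30 were lower and 5 fell past the test, where 0.818% of all genes tested jointly fell. In BPD6 29 were lower and in MC38 14. Mki67, the proliferation antigen, stood at 52.7, 33.3 and 39.0 CPM in control and 10.4, 18.0001 and 24.5 CPM in MR CD8+ T cells, where it fell by 1.24 ± 0.26 (edgeR adjusted p = 0.0295). In MC38 it was 309 ± 40.6 and 277 ± 51.6 CPM (SD, n = 4 each) and in BPD6 198 ± 33.7 (SD, n = 4) and 162 ± 15.97 CPM (SD, n = 3), with overlap in both. Rrm2, the small subunit of ribonucleotide reductase, stood at 9.41, 5.86 and 7.19 CPM and 2.48, 2.67 and 2.04 CPM in CD8+ T cells, a fall of 1.64 ± 0.34 (edgeR adjusted p = 0.0294), beside differences of -0.076 ± 0.15 in MC38 and -0.33 ± 0.24 in BPD6. The sizes differed between materials for 7 of the 30 genes in the interaction test (edgeR adjusted p under 0.05), against 2.23% of all genes tested.

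Lysosome and autophagy genes had 5 of 25 members higher in all 3 (20%), among them Ctsb, Ctsd, Ctsl and Map1lc3b, and 1 lower (4%), Tfe3. The shares over all genes tested were 13.7% higher and 12.3% lower. Ctsd, a lysosomal protease, stood at 204 ± 3.72 and 229 ± 41.3 CPM in CD8+ T cells (SD, n = 3 each), 539 ± 32.3 and 685 ± 109 CPM in MC38 (SD, n = 4 each), and 850.3 ± 52.8 (SD, n = 4) and 984 ± 114 CPM (SD, n = 3) in BPD6. The groups overlapped in CD8+ T cells and BPD6 and not in MC38. The count of 5 was 9 without CD8+ T cell control replicate 3.

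Interferon genes had almost no member of one direction. Of 28 type I interferon genes 1, Ifit2, was higher in all 3 and 0 lower (3.57%), and the list's median was -0.70 in CD8+ T cells, -0.015 in MC38 and 0.66 in BPD6. Of the 28, 27 were lower in CD8+ T cells and 0 in BPD6. Of 17 interferon gamma-induced genes 0 had one direction. Class I antigen presentation genes were lower in 13 of 15 in CD8+ T cells and in 2 and 0 in MC38 and BPD6. Of them 2 were higher in all 3 (13.3%), near the 13.7% over all genes tested. Of 31 proteasome subunits 4 were lower in all 3 (12.9%, near the 12.3% over all genes tested) and 0 higher, with 29 lower in BPD6 and 4 in MC38.

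Some of the genes higher in all 3 materials are markers of immune cells, which in the tumors are cells of the host. Of 16 macrophage markers 6 (37.5%) were higher in all 3, Apoe, C1qa, C1qb, C1qc, Cd68 and Fcgr1, and of 10 tested T cell markers 7 (70%), Cd28, Cd3e, Cd3g, Cd5, Cd6, Cd8b1 and Zap70. Of the 16 macrophage markers 10 were lower in CD8+ T cells, with a list median of -0.23, against 0 lower in MC38 and 2 in BPD6. In CD8+ T cells 1 of them fell past that material's test, beside 0.818% of all genes tested jointly. The summed level of all 16 macrophage markers was 931 to 1980.0 CPM in control and 1446 to 3878 CPM in MR MC38 tumors, 2314 to 3369 and 2566 to 3751 CPM in BPD6, and 497 to 744 and 459.9 to 703 CPM in CD8+ T cells. The T cell markers summed to 26.0 to 42.4 and 19.3 to 87.6 CPM in MC38 and 3.799 to 21.3 and 7.63 to 23.1 CPM in BPD6. In CD8+ T cells they summed to 4727 to 5479 CPM in control and 4496 to 5292 CPM in MR. The ranges of control and MR overlapped for both sums in every material. Cd68, a lysosomal protein of macrophages, stood at 53.1, 57.4, 54.0 and 48.0 CPM in control and 73.1, 66.8 and 66.5 CPM in MR BPD6 tumors, without overlap, and at 41.0 ± 8.48 and 58.5 ± 20.7 CPM in MC38 (SD, n = 4 each), with overlap. Its level in CD8+ T cells was 7.32 ± 2.18 and 8.73 ± 1.87 CPM (SD, n = 3 each). The lysosome genes above are also expressed by macrophages, and the part of these cells in their direction was not tested. The count of 7 T cell markers was 4 without CD8+ T cell control replicate 3 or BPD6 control replicate 4 and 3 without BPD6 MR replicate 1, and the count of 6 macrophage markers was 3 without BPD6 MR replicate 2.

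**Figure D4:**
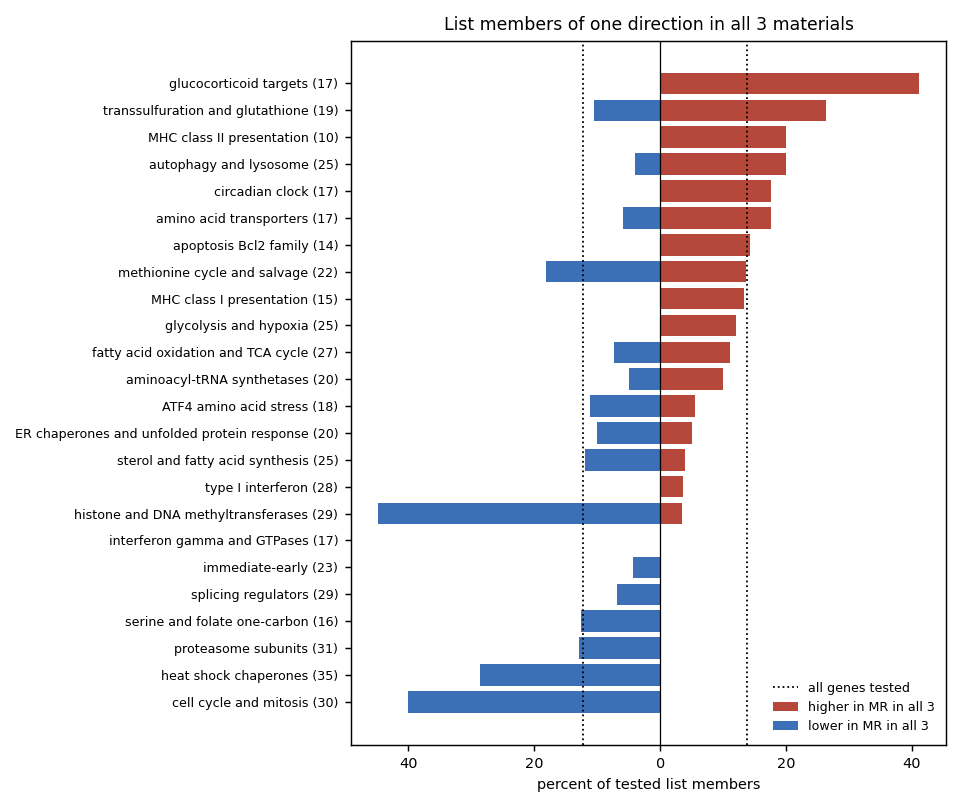
Percent of the tested members of the larger gene lists that were higher (red, to the right) or lower (blue, to the left) in MR in all 3 materials. The number tested is in parentheses, and dotted lines at 13.7% and 12.3% are the shares over all genes tested. Lists of cell type markers are not drawn. Heat shock chaperones (28.6% lower), cell cycle genes (40% lower) and methyltransferases (44.8% lower) extend left, and glucocorticoid targets (41.2% higher) extend right.

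The genes of one direction differed in transcript length, a feature that the choice of members did not use and that was known for 10660 of the tested genes. The median transcript was 1963.5 nt long among the genes higher in all 3, 4299 nt among those lower in all 3 and 2779.5 nt among those of mixed direction. With genes divided into 5 equal groups by length, in the shortest group, 59 to 1576 nt, 23.7% were higher in all 3 and 2.15% lower, and in the longest group, 4660 to 123179 nt, 4.97% were higher and 26.4% lower. The groups between them ran in order, at 18.3%, 13.0% and 9.19% higher and 6.01%, 11.03% and 16.5% lower. The medians of the fold change behind this ran from 0.24 in the shortest to -0.16 in the longest group in MC38, from 0.022 to -0.063 in BPD6, and from -0.029 to 0.0042 in CD8+ T cells. The order by length was thus in the tumor differences and hardly in those of the T cells.

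The order by length was also seen library by library. With each library set against the mean of its material, the longest minus the shortest group was -0.63 on the log2(CPM + 1) scale in MC38 MR replicate 1, against -0.16, -0.097 and 0.13 in the other MC38 MR libraries and 0.036 to 0.34 in the controls. In BPD6 it was -0.33 in control replicate 1 and 0.072 to 0.20 in the other controls. Without MC38 MR replicate 1 the share higher in all 3 was 20.5% in the shortest and 6.19% in the longest group, and the share lower 6.79% and 24.7%, so the order remained, with a smaller span. Without BPD6 control replicate 1 the shares were 31.6% and 4.46% higher and 1.83% and 29.8% lower.

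After a trend on length was subtracted from the fold changes of each material, 2602 of 10660 genes with a length had one direction, 24.4%, beside a product of 25.0%, so the observed share no longer exceeded the product. Of these, 1070 of the 1332 higher and 889 of the 1270 lower genes had the same direction before. The shares in the shortest and longest group were then 12.6% and 12.3% higher and 11.9% and 12.6% lower. Of the 9 genes of lowest p described above Naa16 became mixed and the other 8 kept their sign, with Baz1a at -0.40, -0.089 and -0.29 and Cirbp at 1.46, 0.26 and 0.40 in CD8+ T cells, MC38 and BPD6. Rbm3, Hsph1, Stip1, Rrm2, Eif4g1, Dnmt1 and Hsd11b1 kept theirs as well, while Hspa4l, Mki67, Top2a, Mat2a, Dbp, Oaz2 and Gstp1 became mixed. Hspa8 became lower in all 3. Among the lists, the cell cycle count went from 12 to 7 lower members, the heat shock count from 10 to 13 lower, the glucocorticoid count from 7 to 5 higher, and the transsulfuration count from 5 to 2 higher and the methionine count from 4 to 2 lower. RNA integrity is not given in the labels, and its part in the order by length was not tested.

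**Figure D5:**
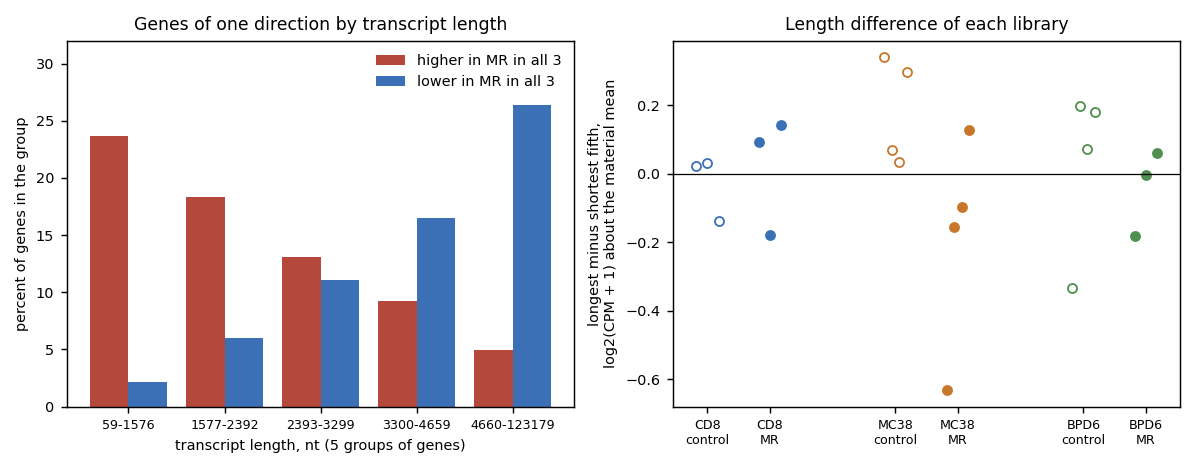
Left, percent of genes higher (red) and lower (blue) in MR in all 3 materials in 5 groups of genes by transcript length in nt; right, the longest minus the shortest length group in each library, in log2(CPM + 1) about the material mean. The share higher falls from 23.7% to 4.97% and the share lower grows from 2.15% to 26.4% with length, and MC38 MR replicate 1 lies lowest at -0.63.

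The genes of one direction also differed in level. The median of the lowest mean over the 3 materials was 10.98 CPM in the higher, 25.1 CPM in the lower and 16.6 CPM in the mixed genes. CPM rises with transcript length, so these levels are not per length. The tables give the same transcript in all 3 materials for 6862 genes, of which 1732 had one direction (25.2%). Among protein-coding genes 2805 of 10818 did.

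Where the materials differed from each other was called more often than a shared effect. The interaction of diet and material passed edgeR's test in 251 genes (2.23%), 221 of mixed direction and 30 of one direction. The latter differ in size and not in sign: Hspa4l, a relative of the Hsp70 chaperones, fell by 1.22 ± 0.23 in CD8+ T cells (edgeR adjusted p = 0.0218) and differed by -0.19 ± 0.083 in MC38 and -0.15 ± 0.11 in BPD6. Stip1, the adaptor between Hsp70 and Hsp90, fell by 1.05 ± 0.18 in CD8+ T cells (edgeR adjusted p = 0.0125) and differed by -0.039 ± 0.14 and -0.10 ± 0.13. The count of 251 was 54 without CD8+ T cell MR replicate 1 and 384 without CD8+ T cell MR replicate 3.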

How the data were processed

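The authors deposited 3 tables of estimated counts per gene and library without normalization, and 41.0% (CD8), 46.8% (MC38) and 46.6% (BPD6) of the values are not whole numbers. The same tables hold the authors' log2 fold changes and p-values of MR over control, per the file headers. Per the submitters' processing notes reads were placed on GRCm38 (mm10). Which aligner and counter were used is not given in the sources used here. Per the labels' protocols, RNA was extracted with QIAzol, captured on poly-T beads and primed with random hexamers. Strand is not stated, so overlapping antisense genes cannot be told apart. The tables hold 21 more per-library columns, which were left aside.

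The column names of BPD6 begin with a different model name from the labels. Its MR columns bear the numbers 1, 2 and 4 and were matched to the diet group only. BPD6 numbers in the text are column numbers. Any 2 libraries of a group differed by more than sampling noise (lowest chi-square 12.2 for each degree of freedom).

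Rounded counts were analysed by edgeR 4.0.16 (R 4.3.3), quasi-likelihood test, with TMM normalization, filterByExpr in each table and Benjamini-Hochberg adjustment over all genes tested, at a threshold of 0.05. Designs were material plus diet over 21 libraries, diet within each table (for direction), and the diet by material interaction. DESeq2 1.42.0 and limma-voom (limma 3.58.1) were alternatives. CPM used the TMM factors, except for marker sums and genes not tested in a material, and are given per library or as mean ± SD. Transcript lengths (known for 94.8% of tested genes) are those of GENCODE transcripts matched by RefSeq accession. Gene coordinates and promoter windows are from RefSeq, GRCm38.p6. The scripts were tested on simulated counts.

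The genes compared and the gene lists were chosen with earlier results of these data known. Named genes were the 5 of lowest p per direction, because none passed edgeR's shared test, 12 fixed genes, and list members of lowest p. A few of these are not reported here.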

Additional observations from a re-analysis of the deposited data

Results flagged for a closer look

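Replicates were checked for single libraries far from the others in 55 named genes and 3 groups of 4 libraries, 165 checks, of which chance gives about 1 in 20. C1galt1, the enzyme that starts the core of mucin-type glycans, stood at 45.7 CPM in BPD6 control replicate 4 against a mean of 35.1 CPM in the other controls. Chml, a Rab escort protein, stood at 14.1 CPM in the same library against 21.6 CPM. Both genes were lower in MR in all 3 materials.

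The diet effect differed between materials by edgeR's interaction test for 6 named genes. The adjusted p was 0.0357 for Rbm3, 0.0317 for Fkbp5, 0.0101 for Hspa4l, 0.0403 for Stip1, 0.0314 for Top2a and 0.0357 for Rrm2. The difference in CD8+ T cells was the largest in size in each of the 6, from 1.11 for Fkbp5 and 1.09 for Rbm3 to -1.05 for Stip1 and -1.64 for Rrm2.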

How the results depend on the processing

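The count of 0 edgeR calls for the shared diet effect held with TMM within each material, without the filter on low counts, at a mean of at least 5 CPM, over genes with the same transcript in all 3 tables, and with any 1 material left out. DESeq2 gave 43 calls, 43 of one direction, limma-voom 1 and 1, and equal weights for the materials 90 and 73. The interaction gave 783 calls with DESeq2, 162 with limma-voom and 80 over the genes with the same transcript, of which 1732 had one direction. Asking for a log2 difference of at least 0.2 in each material left 212 genes. The cause of these differences was not tested. Leaving out 1 library gave 0 to 1 shared calls and 0 to 1 of one direction, 2576 to 3261 genes of one direction, 0 to 5 genes at an unadjusted p under 0.05 in all 3 materials, 0 to 0 by the largest p, and 54 to 384 interactions.

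Same-numbered libraries did not vary together (correlations 0.086, -0.26 and -0.21 in CD8+ T cells, -0.098, -0.31, -0.13 and 0.41 in MC38), and only MC38 number 4 correlated best with its own number. With the replicate number as a block, 0 genes were called, 2924 had one direction and the interaction gave 115 calls.

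The shared difference of Per2 changed sign to -0.034 and that of Atf4 to 0.039 without the CD8+ T cells, and that of Slc7a5 to 0.088 without MC38. Atf4 ran from -0.14 to 0.020 in the fits without 1 library. None of these was called. Depth was 15733774 to 24129562 counts per library. Asns, left out of the joint test, did not exceed 0.613 CPM in CD8+ T cells.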
